A study of Mus musculus with 71 samples.

Results

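The comparison described here set the terminal whole blood of mice labelled HOCl with BPR21 against that of control mice. Its members were the 12 libraries titled with both names and the 11 control libraries, 23 of the 71 libraries of the series, and all genes of the deposited table were compared. The model is an induced form of systemic sclerosis, a disease of fibrosis, vessel injury and immune activation. HOCl, hypochlorous acid, is an oxidant that was injected into the skin of the back, and control mice received PBS. According to the study's methods, the mice were young female Balb/c AnNRj, and control and experimental groups were kept in separate cages, so cage and group cannot be told apart. These methods describe control, HOCl, D11, E07 and TD139 groups (TD139 is a galectin-3 inhibitor) and name neither BPR21 nor D06. Sex, strain, age and caging of the BPR21 mice are therefore assumed to be those of the described groups. BPR21 is known by its label alone, and neither its nature nor its dose or route was given in the sources used here. BPR21 mice differ from control mice by HOCl and BPR21 together, and the 2 agents cannot be told apart in this comparison. The titles and the treatment labels gave the groups, since the genotype label reads HOCL for control mice too. The other groups, each of 12 mice, are labelled HOCl alone, or HOCl with D11, E07 or D06, D11 and E07 being antibodies to galectin-3.

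Whole blood RNA comes from several kinds of cells. Red cell precursors and reticulocytes give the RNA of haem synthesis and the membrane skeleton, platelets carry RNA from megakaryocytes, and leukocytes give the rest. Classical monocytes, marked by Ly6c2 and by the chemokine receptor Ccr2, leave the marrow through Ccr2 and enter inflamed tissue, while patrolling monocytes, marked by Cx3cr1, stay along the vessel wall. In a bulk sample, fewer cells of a type and less RNA per cell cannot be told apart.

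Each BPR21 library held 12.2 to 14.9 M counts (median 14.0 M) and each control library 12.9 to 15.9 M (median 13.7 M), and the mean log2 totals differed by -0.0064 (permutation test, two-sided, 100000 resamples, p = 0.85). DESeq2 size factors, by which the counts of each library are divided, were computed here from the whole count table of 71 mice. They were 0.985 ± 0.226 (SD, n = 12) in BPR21 and 1.29 ± 0.259 (n = 11) in control mice, a log2 difference of -0.397 (permutation test, p = 0.0104). The factors behind the deposited vst values, which cover 70 mice, may differ from these. A list of 75 erythroid genes took 15.9% ± 3.69 of all counts in BPR21 mice and 12.4% ± 4.08 in control mice. Defining markers of blood cells (Alas2, Cd79a, Cd3e, S100a8, Pf4, Ccr2 and Ncr1) had at least 207 counts in each of the 23 libraries, and all 14 genes of a solid tissue list fell outside the vst table. However, 4 BPR21 libraries stood apart. Mice 7, 10, 11 and 12 held 3326 to 5902 counts of Alb, the albumin gene of hepatocytes, against 0 to 22 in the other 8 BPR21 mice and 0 to 13 in control mice. Of the other HOCl-induced groups, 5 HOCl, 2 D11, 3 E07 and 1 D06 libraries also held over 1000 counts of Alb. HOCl mouse 11 and D06 mouse 3, with 681 and 847 counts, lay below this limit, which was set after the counts were seen, and stayed in all fits. The limma and edgeR counts against control and the limma counts against the other groups are also given without the libraries over 1000 counts.

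In BPR21 mice, 53 of 10508 genes (0.504%) passed the comparison with control by limma (false discovery rate, FDR, up to 0.05 and a 1.3-fold change or more), with 16 higher (0.152%) and 37 lower (0.352%). The largest decreases were those of Ccr2, Tifab, Tmem176b, Cx3cr1, Aif1, Ms4a6d and Ms4a6c, which fell by 0.77 to 1.08 on the log2 scale of the vst values. The largest increase was that of Dnaja1, a cofactor of the heat shock protein Hsp70, and the platelet chemokine Pf4 and the red cell membrane protein Stom were among the other genes that rose. An unadjusted p under 0.05 was reached by 2095 genes (19.9%). No gene separated the groups completely, since the vst values of BPR21 and control mice overlapped for each of the 10508 genes.

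The number of genes that passed depended on the test, the scaling and the mice. edgeR on the counts called 187 of 10501 genes (1.78%), 117 higher (1.11%) and 70 lower (0.667%), and these comprised all 53 genes called by limma. DESeq2 called 521 genes (4.96%), 393 higher (3.74%) and 128 lower (1.22%). Over 13084 genes of the whole count table that reached 10 counts in 11 or more mice, edgeR called 118 (0.902%), 64 higher (0.489%) and 54 lower (0.413%). Without the 4 mice of high Alb counts, limma called 13 genes (0.124%), all lower, of which 9 were among the 53, and edgeR called 17 (0.162%), 2 higher (0.0191%) and 15 lower (0.143%). All 53 genes kept their direction in the 8 remaining mice, but these mice were among those by which the genes were chosen. With each mouse scaled to its total count, limma called 677 genes, 9 higher and 668 lower, while the median log2 difference over all genes moved from -0.01 to -0.38. All 53 genes kept their direction on that scale as well. With the erythroid score of each mouse (the mean of its z-scored erythroid genes) as a covariate, limma called 0 genes, and 634 had an unadjusted p under 0.05. Leaving out 1 mouse at a time gave between 19 calls (without control 1) and 650 (without control 12), and 488 calls without BPR21 mouse 1.

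Promoter sequences of a gene that fell and of the gene that rose most are shown here, since PU.1, a transcription factor of myeloid cells, and the heat shock factor are the textbook regulators of monocyte and chaperone genes. The sequences are from RefSeq on GRCm38.p6, 100 bases each, read 5′ to 3′ on the strand of the gene, with the motif in capitals.
Ly6c2 (chr15:75112020-75112119, minus strand): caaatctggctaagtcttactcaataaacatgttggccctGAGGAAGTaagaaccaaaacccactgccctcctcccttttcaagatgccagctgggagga
Dnaja1 (chr4:40722304-40722403, plus strand): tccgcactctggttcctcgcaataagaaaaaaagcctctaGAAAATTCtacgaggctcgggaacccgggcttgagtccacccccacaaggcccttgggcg
The PU.1 motif was searched as GAGGAAGT and the heat shock element as GAANNTTC, on both strands, in the 250 bases before the start of transcription. The PU.1 motif lay in 2.82% of 8256 promoters, and in 3 of the 30 promoters matched among the 37 genes that fell (10.0%; Ly6c2, Ctsc and Cyp4f16). It also lay in 1 of the 12 promoters matched among the genes that rose (8.33%), that of Pf4, and in 1 of 9 promoters of the classical monocyte list (11.1%), that of Ly6c2. The heat shock element lay in 5.15% of all promoters and in 3 of 7 promoters of the heat shock list (42.9%), Dnaja1, Hspe1 and Hspb1. It also lay in 2 of the 12 promoters of genes that rose (16.7%; Dnaja1 and Pf4), in 4 of the 30 of genes that fell (13.3%; Ctss, Fcgr1, Cd209a and Pld4) and in 2 of the 9 of the classical monocyte list (22.2%; Ctss and Clec4a1). These matches describe letters in a window and were not tested as binding sites.

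Ccr2, the receptor that brings monocytes out of the marrow, had the largest decrease. Its vst values ranged from 9.69 to 11.86 (median 10.95) in BPR21 mice and from 11.52 to 12.36 (median 11.80) in control mice, and 10 of 12 BPR21 mice lay below the lowest control. The log2 fold change was -1.08 ± 0.21 (SE; limma, FDR = 0.0149), and without the 4 mice of high Alb counts it was -1.04 ± 0.16 (FDR = 0.00504). The gene lies at chr9:123901982-123913594 on the plus strand of GRCm39. A median of 1808 raw counts, not divided by size factors, was behind the BPR21 values, against 4948 in control mice.

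Tifab, an inhibitor of the TRAF6 adaptor of innate signalling, ranged from 8.07 to 9.57 (median 9.02) in BPR21 and from 9.52 to 10.58 (median 10.14) in control mice. All but 1 of the BPR21 mice lay below the lowest control mouse. Its log2 fold change was -1.04 ± 0.15 (FDR = 0.00192), and -0.95 ± 0.13 without the 4 mice (FDR = 0.00219). Tmem176b, a membrane protein of monocytes and dendritic cells, ranged from 7.58 to 8.65 (median 8.19) against 8.37 to 9.84 (median 9.15), with 7 BPR21 mice below all control mice. It fell by 0.99 ± 0.15 (FDR = 0.0028), and by 0.92 ± 0.17 without the 4 mice (FDR = 0.0222).

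Cx3cr1, the fractalkine receptor of patrolling monocytes, ranged from 6.65 to 8.55 (median 7.87) in BPR21 and from 8.13 to 9.37 (median 8.76) in control mice. Each BPR21 mouse was below the control mean, and 9 were below every control mouse. The log2 fold change of -0.88 ± 0.17 (FDR = 0.0149) was -0.83 ± 0.20 without the 4 mice and then missed the threshold (FDR = 0.124). Aif1, a calcium-binding protein of monocytes and macrophages, ranged from 6.46 to 7.55 (median 7.22) against 7.38 to 8.28 (median 8.14). Aif1 fell by 0.85 ± 0.13 (FDR = 0.00192) and by 0.81 ± 0.13 without the 4 mice (FDR = 0.00504). Its median raw counts, not divided by size factors and so not on the vst scale, were 168 in control and 43.5 in BPR21 mice.

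**Figure D1:**
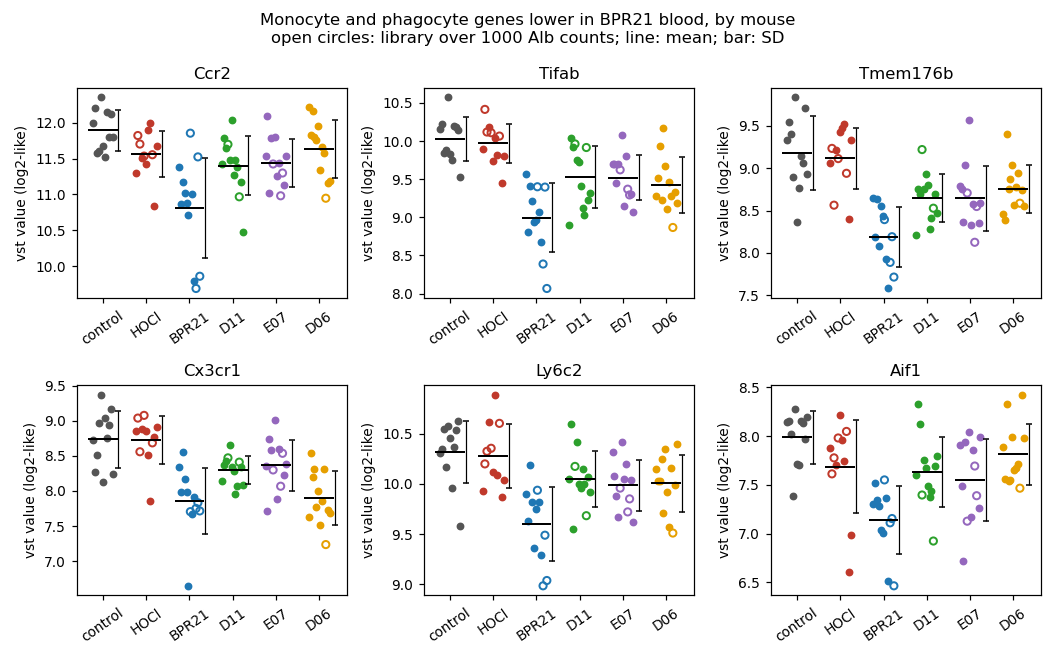
vst values (log2-like scale, y axis) of 6 genes that fell in BPR21 mice, by mouse and group (x axis); the line is the group mean, the bar its SD, and open circles mark libraries with over 1000 Alb counts. For Ccr2, 10 of 12 BPR21 mice lie below the lowest control mouse, and the BPR21 group has the lowest mean of the 6 groups for each gene.

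Other genes of phagocytes fell with these. Ms4a6d and Ms4a6c, membrane proteins of monocytes and macrophages, had log2 fold changes of -0.85 ± 0.19 (FDR = 0.0336) and -0.77 ± 0.16 (FDR = 0.0256). Mpeg1, the pore-forming perforin-2, fell by 0.76 ± 0.14 (FDR = 0.0106), with 10 of 12 BPR21 mice below the lowest control. Ly6c2, the surface marker of classical monocytes whose promoter is printed above, ranged from 8.98 to 10.19 (median 9.69) in BPR21 and from 9.58 to 10.63 (median 10.37) in control mice. Only 5 BPR21 mice were below all controls for Ly6c2, and its log2 fold change was -0.72 ± 0.14 (FDR = 0.0147; without the 4 mice -0.60, FDR = 0.0786).

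Fcgr1, the high-affinity receptor for IgG, ranged from 6.97 to 8.12 (median 7.55) against 7.93 to 8.74 (median 8.25) in control mice. It fell by 0.75 ± 0.13 (FDR = 0.0106) and was the only one of 10 measured Fc receptor genes that passed. Cybb, the catalytic subunit of the phagocyte NADPH oxidase, had a log2 fold change of -0.76 ± 0.16 (FDR = 0.0247), and -0.53 without the 4 mice (FDR = 0.13). Colec12, a scavenger receptor, completed the 12 largest decreases with -0.67 ± 0.15 (FDR = 0.0384). Ctss, a lysosomal cysteine protease that trims the invariant chain, ranged from 10.65 to 11.52 (median 11.30) against 11.37 to 12.23 (median 11.74), a log2 fold change of -0.59 ± 0.11 (FDR = 0.0131).

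Some of the calls depended on single mice. Among the 12 largest decreases and the 12 largest increases, 10 genes passed in each of the 23 fits that left out 1 mouse, namely Ccr2, Tifab, Tmem176b, Cx3cr1, Aif1, Mpeg1, Fcgr1, Ly6c2, Dnaja1 and Pgap4. Cybb lost its call without control 6 alone. Ms4a6c passed in 18 of the 23 fits, Ms4a6d in 13 and Colec12 in 11, and controls 1, 2, 6 and 11 and BPR21 mouse 9 were among the mice whose removal ended each of these 3 calls. Among the increases, H4c3 lost its call without control 1 alone, and Slc43a3 and Kcnj5 passed in 18 fits. Gng11, Gchfr, Stom, Pdzk1ip1, Tmem158, Pf4 and Trdc passed in 6 to 11 fits, and each lost its call without control 1, 2, 8, 10 or 11 or BPR21 mouse 7 or 9, among others.

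Of the 13 classical monocyte genes in the table, 5 fell (Ccr2, Ms4a6c, Mpeg1, Ly6c2 and Ctss), beside 0.352% of all genes, 0 rose and 8 did not pass. This list, like the others, was chosen with earlier results of these data known, so its counts are not independent support. The median log2 fold change of the 13 was -0.54, beside -0.01 over all genes tested. It was -0.50 without the 4 mice, when 3 genes passed (Ccr2, Ms4a6c and Mpeg1), beside 0.124% of all genes. Their mean vst value ranged from 8.91 to 9.98 (median 9.46) in BPR21 and from 9.65 to 10.48 (median 10.00) in control mice, and BPR21 mice 9, 10 and 12 were the 3 lowest. Cd14, a lipopolysaccharide coreceptor, was the only member above 0, at 0.52 on the log2 scale, and it did not pass. Of 11 patrolling monocyte genes, Cx3cr1 fell and 10 did not pass, with a median of -0.39 (-0.20 without the 4 mice). Ear2, a ribonuclease carried by these monocytes and by eosinophils, had a log2 fold change of -0.67 ± 0.20 (FDR = 0.0956).

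In the 8 BPR21 mice of low Alb counts 13 genes passed, of which 3 were on the classical monocyte list and 0 on the patrolling list. Beside Ccr2, Tifab, Tmem176b, Aif1, Ms4a6d, Ms4a6c, Mpeg1, Fcgr1 and Pid1, these were Apoe, Msr1, Lyz2 and Atrnl1, which were named after their values were seen. Apoe, an apolipoprotein that macrophages secrete, had a log2 fold change of -0.62 in the 12 mice (FDR = 0.0645) and -0.84 in the 8 mice (FDR = 0.0202). Msr1, a macrophage scavenger receptor, had -0.84 in both (FDR = 0.0751 and 0.0192). Lyz2, the lysozyme of phagocytes, narrowly missed the threshold in the 12 mice with -0.58 ± 0.14 (FDR = 0.051) and fell by 0.66 ± 0.11 in the 8 mice (FDR = 0.00991).

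**Figure D2:**
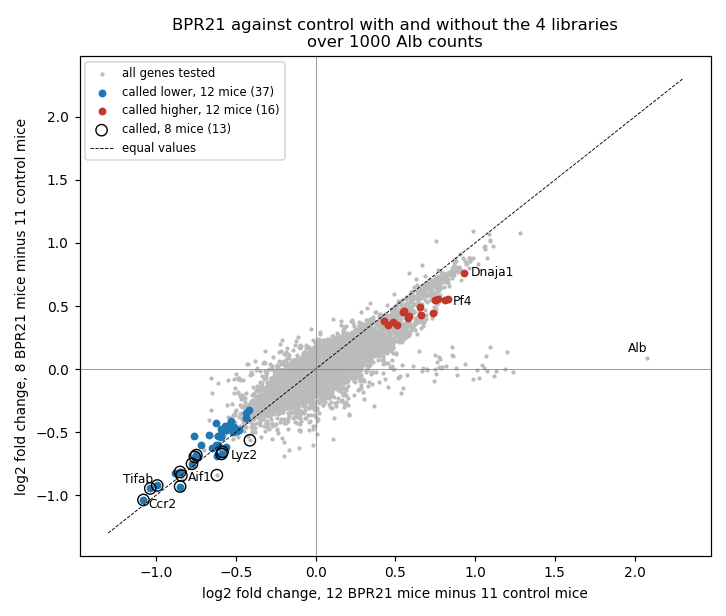
log2 fold change of each gene against control with all 12 BPR21 mice (x axis) and with the 8 mice of low Alb counts (y axis), both against the same 11 control mice. The named monocyte genes lie near the same values on both axes (Ccr2 at -1.08 and -1.04), whereas Alb moves from 2.08 to 0.09.

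Natural killer cells kill by granzymes and perforin after recognition through receptors such as Ncr1. Ncr1 ranged from 8.38 to 9.88 (median 8.97) in BPR21 and from 9.04 to 10.12 (median 9.61) in control mice, with 7 BPR21 mice below all controls. Its log2 fold change was -0.62 ± 0.14 (FDR = 0.04), and that of Gzma, granzyme A, was -0.56 ± 0.13 (FDR = 0.0388). These were the 2 genes that fell among the 17 of the NK and cytotoxic list, beside 0.352% of all genes, and 15 did not pass. The median of the list was -0.27 (-0.29 without the 4 mice). Tbx21, the transcription factor T-bet, had -0.46 ± 0.13 (FDR = 0.0702). Ncr1 passed in 8 and Gzma in 9 of the 23 fits that left out 1 mouse, and without the 4 mice their FDR was 0.124 and 0.0801.

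Of 24 T cell genes, 0 passed by limma or edgeR and 3 had an unadjusted p under 0.05, beside 19.9% of all genes. Their median was 0.04 (-0.36 with total-count scaling, beside -0.38 for all genes). Trdc, the constant region of the T cell receptor delta chain, was however among the genes that rose. It ranged from 11.46 to 12.98 (median 11.68) in BPR21 and from 10.81 to 11.68 (median 11.15) in control mice, with a log2 fold change of 0.66 ± 0.15 (FDR = 0.0349). All 12 BPR21 mice were above the control mean and 6 above every control mouse, while 11 of the 23 fits that left out 1 mouse called Trdc. Its values also reached 12.82 in D11, 12.65 in D06, 12.18 in HOCl and 11.75 in E07 mice. In the BPR21, control, D11 and D06 groups, though not in HOCl and E07, the mouse of highest Trdc also had the highest Pf4. Which cells gave the Trdc RNA was not tested.

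B cell genes did not pass either, and their values set the 4 libraries apart. All 20 genes of the B cell list had negative log2 fold changes, from -0.65 to -0.19 with a median of -0.33. However, 0 passed by limma or edgeR and 5 had an unadjusted p under 0.05, beside 19.9% of all genes. Without the 4 mice the median was 0.02. The mean vst value of the list was 9.63, 9.73, 9.05 and 9.47 in BPR21 mice 7, 10, 11 and 12, whereas it ranged from 10.06 to 10.93 in the other 8 and from 10.23 to 11.09 in control mice. The 4 mice thus lay below each of the other 19 mice. Ighd, the IgD heavy chain of naive B cells, had a log2 fold change of -0.61 in all 12 mice (FDR = 0.181) and -0.11 in the 8 mice (FDR = 0.85).

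MHC class II genes, which present antigen on B cells and monocytes, showed a similar difference. The 10 genes had a median log2 fold change of -0.49, and -0.08 without the 4 mice. By limma and edgeR 0 genes passed, and 8 had an unadjusted p under 0.05, beside 19.9% of all genes. H2-DMa, which loads peptides onto class II molecules, came nearest with -0.65 ± 0.17 (FDR = 0.0628), and its values of 8.57 to 10.28 were below the control mean in all 12 BPR21 mice. Cd209a, a lectin of monocyte-derived dendritic cells, was the only gene of 6 on the dendritic cell list that fell. It ranged from 6.06 to 7.50 in BPR21 and from 7.09 to 8.24 in control mice (log2 fold change -0.65 ± 0.14, FDR = 0.0292), but its counts were low, with a median of 28.5 in BPR21 mice.

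**Figure D3:**
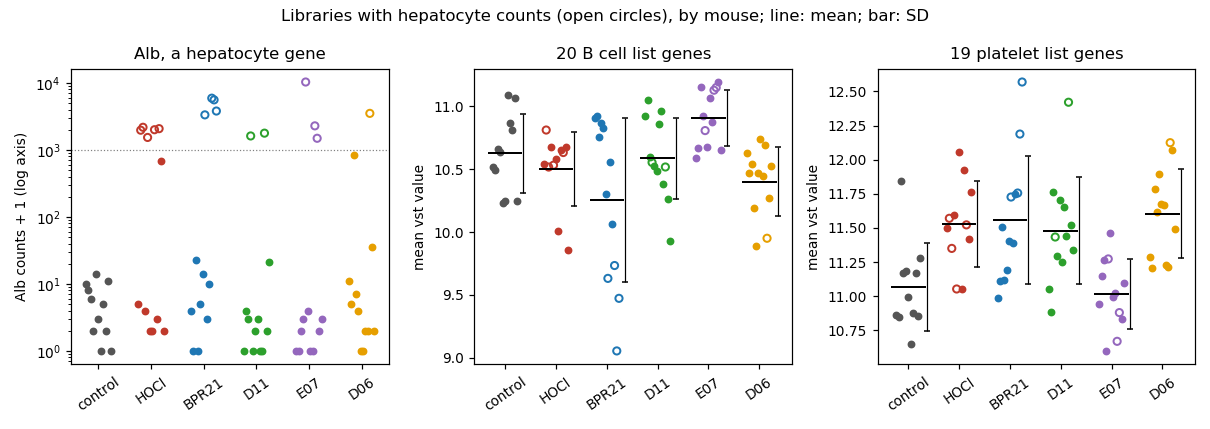
Alb counts plus 1 (log axis), mean vst value of 20 B cell genes and mean vst value of 19 platelet genes, by mouse and group; open circles mark libraries with over 1000 Alb counts, lines are means and bars SD. BPR21 mice 7, 10, 11 and 12, with 3326 to 5902 Alb counts, have B cell means of 9.05 to 9.73, below the 10.06 to 10.93 of the other BPR21 mice.

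Of 34 genes of the type I interferon list 2 fell, Ifi44 and Mx1, beside 0.352% of all genes, and 0 passed without the 4 mice. Ifi44, an interferon-induced gene, ranged from 8.08 to 8.83 (median 8.46) in BPR21 and from 8.42 to 9.45 (median 9.02) in control mice, and fell by 0.56 ± 0.12 (FDR = 0.0259). Mx1, an antiviral GTPase that is defective in many inbred strains, fell by 0.53 ± 0.12 (FDR = 0.0388) and passed in 9 of the 23 fits that left out 1 mouse. Its median raw counts, not divided by size factors, were 202 in control and 73.5 in BPR21 mice. The other 32 genes did not pass, and the median of the list was -0.04. Its members spread from -0.56 to 0.88, with Rsad2 and Isg15 at 0.88 and 0.84 without passing. Of the 18 interferon-gamma and GTPase genes and the 13 MHC class I genes, 0 passed by limma or edgeR, with medians of 0.11 and -0.04. Under an unadjusted p of 0.05 there were 6 and 3, beside 19.9% of all genes.

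Nr4a1, a nuclear receptor of the immediate early response and of patrolling monocytes, fell by 0.48 ± 0.11 (FDR = 0.043). It was the only gene of 19 on the immediate early list to pass, and it passed in 6 of the 23 fits that left out 1 mouse. The remaining genes that fell, named after their values were seen, had log2 fold changes from -0.62 to -0.42. They included Ly6c1, a sister gene of Ly6c2, the phagocyte and lysosomal genes Pld4, Naaa, Ctsc and Slc29a3, the lipid and receptor genes Scarb1, Pltp, P2ry6 and Sdc3, the NK receptor Klra3, the cold-inducible RNA-binding gene Cirbp, and Pid1, Arhgef37, Fuz, Cyp4f16, Neil1 and Gm21188. Ly6c1 had 11 of 12 BPR21 mice below the lowest control (log2 fold change -0.62 ± 0.11, FDR = 0.0126). Reads of Ly6c1 and Ly6c2, and of the Ms4a6 genes, may be split between near-identical copies, which makes their separate values less certain.

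Heat shock proteins refold damaged proteins, and Dnaja1 delivers them to Hsp70. Dnaja1 ranged from 10.14 to 12.10 (median 10.91) in BPR21 and from 9.53 to 10.49 (median 10.02) in control mice, and 8 of 12 BPR21 mice lay above the highest control. The log2 fold change was 0.93 ± 0.19 (FDR = 0.0233), the largest among the genes that passed, and 0.76 ± 0.18 without the 4 mice (FDR = 0.124). Hsph1, a nucleotide exchange factor of Hsp70, was above the control mean in all 12 mice, from 8.59 to 11.26 against 8.14 to 8.87. With a log2 fold change of 0.96 ± 0.24 it missed the limma threshold (FDR = 0.0628) and passed by edgeR (FDR = 0.012). Dnajb1, another cofactor, had 0.68 ± 0.20 (limma, FDR = 0.0754; edgeR, FDR = 0.0342).

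All 10 heat shock genes of the table had positive log2 fold changes, with a median of 0.44 (0.35 without the 4 mice, and 0.08 with total-count scaling). Dnaja1 alone passed by limma. The mean vst value of the list was 9.52 to 10.87 (median 9.80) in BPR21 and 9.42 to 9.66 (median 9.49) in control mice. It was over 10 in 5 BPR21 mice, which were mice 5, 6, 9, 10 and 12, and only 2 of these (mice 10 and 12) held high Alb counts. In the other HOCl-induced groups this mean reached 10.20 in D06, 10.05 in D11, 9.87 in HOCl and 9.63 in E07 mice. Ptges3, the Hsp90 cochaperone p23, which lies outside this list, rose by 0.43 ± 0.10 (FDR = 0.0384), with 11 of 12 BPR21 mice above the highest control, and passed in 10 of the 23 fits that left out 1 mouse.

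**Figure D4:**
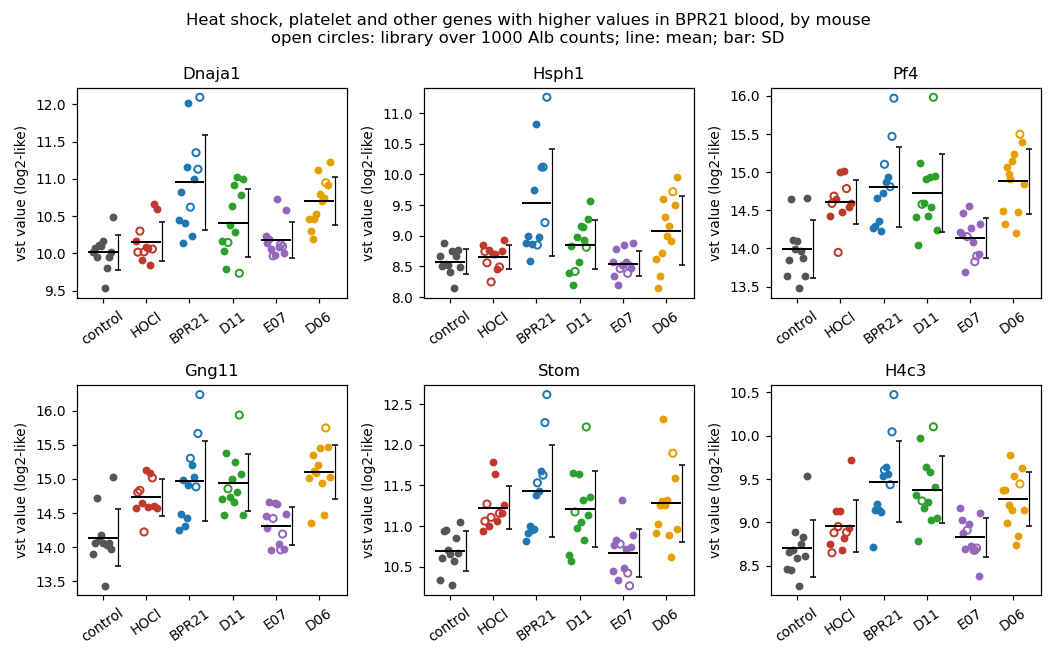
vst values (log2-like scale, y axis) of Dnaja1, Hsph1, Pf4, Gng11, Stom and H4c3, by mouse and group (x axis); the line is the group mean, the bar its SD, and open circles mark libraries with over 1000 Alb counts. For Dnaja1, 8 of 12 BPR21 mice lie above the highest control mouse. Mice of the other HOCl-induced groups also reach above it, up to 11.23 in D06, 11.03 in D11, 10.74 in E07 and 10.66 in HOCl. For Pf4 and Gng11 the HOCl, D11 and D06 means lie near the BPR21 mean.

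Platelet genes were represented by Pf4, the chemokine of alpha granules, and Gng11, a G protein subunit abundant in platelets. Pf4 ranged from 14.22 to 15.97 (median 14.77) in BPR21 and from 13.48 to 14.66 (median 13.97) in control mice, with all 12 BPR21 mice above the control mean and 7 above every control. Its log2 fold change was 0.81 ± 0.18 (FDR = 0.0336), and 0.55 ± 0.15 without the 4 mice (FDR = 0.166). Gng11 rose by 0.83 ± 0.20 (FDR = 0.0479), and by 0.56 ± 0.17 without the 4 mice, when it missed the threshold (FDR = 0.212). The 2 calls were lost with many single mice left out, since Pf4 passed in 11 and Gng11 in 6 of the 23 fits.

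Pf4 was the only one of the 19 platelet genes in the table that passed by limma. Ppbp, the neighbouring chemokine gene, had 0.66 ± 0.17 (limma, FDR = 0.0663) and passed by edgeR (FDR = 0.0436). The median of the list was 0.51, and 0.26 without the 4 mice. The mean vst value of the platelet genes was 11.73, 11.76, 12.19 and 12.57 in mice 7, 10, 11 and 12, against 10.99 to 11.75 in the other 8 BPR21 mice and 10.65 to 11.84 in control mice.

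The erythroid lists had medians above 0, but their genes did not pass by limma. The red cell membrane list of 19 genes had a median log2 fold change of 0.68, haem synthesis (12 genes) 0.52, iron and haemoglobin genes (10) 0.64, erythroid transcription factors (12) 0.47 and reticulocyte maturation (20) 0.72, and 0 of these 73 genes passed. Without the 4 mice the medians were 0.62, 0.44, 0.52, 0.25 and 0.70, and with total-count scaling 0.34, 0.20, 0.31, 0.09 and 0.37. An unadjusted p under 0.05 was reached by 14, 9, 3, 6 and 17 genes, beside 19.9% of all genes. By edgeR, 3 transcription factor genes passed, the repressor Gfi1b, Tal1 and the master regulator Gata1, and 0 of the others. Over all genes edgeR called 1.11% higher.

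Alas2, the first enzyme of haem synthesis in red cells, ranged from 18.84 to 20.99 (median 19.68) in BPR21 and from 17.66 to 20.18 (median 18.98) in control mice, and its log2 fold change was 0.78 ± 0.27 (FDR = 0.125). Tspan33, a tetraspanin of erythroblasts, had 0.94 ± 0.29 (FDR = 0.0964), and Gfi1b 0.54 ± 0.14 (FDR = 0.0628). The share of counts of the 75 erythroid genes, 73 of them in the vst table, ranged from 10.2% to 21.4% (median 16.0%) in BPR21 and from 5.69% to 19.3% (median 12.1%) in control mice, so the groups overlapped widely. Control 12, whose removal raised the number of calls to 650, held the highest erythroid share of the controls, at 19.3%, and the lowest size factor, at 0.746. Their part in the result was not tested.

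Stom, or stomatin, a membrane protein of red cells, ranged from 10.82 to 12.62 (median 11.41) in BPR21 and from 10.28 to 11.05 (median 10.67) in control mice. It rose by 0.74 ± 0.17 (FDR = 0.0416), and passed in 8 of the 23 fits. H4c3, a replication-dependent histone gene, rose by 0.77 ± 0.16 (FDR = 0.0238) with all 12 BPR21 mice above the control mean. Slc43a3, a purine transporter, rose by 0.65 ± 0.14 (FDR = 0.0273), and 10 of 12 BPR21 mice were above the highest control. The other largest increases were Pdzk1ip1 (0.75), Gchfr (0.59), which regulates the first enzyme of tetrahydrobiopterin synthesis, Tmem158 (0.58), Pgap4 (0.56) and Kcnj5 (0.55), a potassium channel subunit. Zfp664, Msi2 and Sav1 also rose, by 0.51, 0.49 and 0.45, and were named after their values were seen. Without the 4 mice, 0 genes were higher by limma and 2 by edgeR.

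Granulocyte lists held few calls. Cybb was the only one of 12 neutrophil granule genes that passed, with a median of -0.11, and 0 of 19 mature neutrophil genes passed or had an unadjusted p under 0.05, in spite of a median of 0.20 (-0.14 without the 4 mice, and -0.16 with total-count scaling). The mean vst value of the mature neutrophil genes was 12.44 and 12.58 in BPR21 mice 7 and 11, above the 10.11 to 11.50 of control mice, and 10.18 to 10.71 in the other 10 BPR21 mice. Of 11 eosinophil and 10 basophil genes 0 passed by either tool, with 5 of each list under an unadjusted p of 0.05 and medians of 0.02 and 0.32. Plasma cell and immunoglobulin genes (17) had 0 calls by either tool, 4 under an unadjusted p of 0.05, and a median of -0.17. The share of all genes under this p was 19.9%.

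Lgals3, which encodes galectin-3, the protein that the antibodies of the study bind, ranged from 9.94 to 11.23 (median 10.48) in BPR21 and from 10.58 to 11.52 (median 10.88) in control mice. Its log2 fold change was -0.40 ± 0.14 (FDR = 0.112), so the difference did not pass, although 8 of 12 BPR21 mice were below the lowest control. Lgals1 had -0.27 ± 0.08 (FDR = 0.0923). Of the 6 measured galectin genes, 0 passed by limma or edgeR, with a median of 0.04. An unadjusted p under 0.05 was found for 2 of them, beside 19.9% of all genes.

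Genes of the oxidative stress response were also examined, since HOCl is an oxidant. Of 20 genes on the NRF2 list, 0 passed by limma or edgeR and 9 had an unadjusted p under 0.05, beside 19.9% of all genes. The median of the list was 0.20 (-0.12 with total-count scaling). Gpx1, the glutathione peroxidase that is abundant in red cells, had the largest log2 fold change of the list, 1.28 ± 0.35 (FDR = 0.0702), with values from 15.34 to 18.69 (median 17.02) against 14.63 to 18.10 (median 15.71). Gclm and Nqo1, which make glutathione and reduce quinones, had 0.72 ± 0.22 (FDR = 0.0962) and 0.49 ± 0.16 (FDR = 0.0982).

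In the remaining lists 0 genes passed by limma. Median log2 fold changes were 0.02 for the cell cycle (19 genes), -0.02 for TGF-beta (12), 0.03 for IL-5 and IL-6 signalling (14), -0.07 for inflammasome and IL-1 (13), 0.01 for Toll-like receptors (16), -0.01 for endoplasmic reticulum stress (20), 0.01 for the circadian clock (11), 0.18 for autophagy (21), 0.09 for ribosomal proteins (80), 0.09 for nuclear genes of oxidative phosphorylation (78), 0.15 for mitochondrially encoded genes (13) and -0.03 for the proteasome (45). By edgeR 1 of these genes passed, Cox5a, a subunit of cytochrome c oxidase, beside 1.78% of all genes. At an unadjusted p of 0.05 there were 5, 0, 1, 2, 1, 4, 1, 12, 10, 22, 2 and 8 genes, in the same order. Over all genes the share at this p was 19.9%. With total-count scaling the medians of the cell cycle, IL-5 and IL-6, Toll-like receptor, circadian, autophagy, ribosomal, oxidative phosphorylation and mitochondrial lists turned negative, as did those of the eosinophil, T cell, interferon-gamma, NRF2, galectin and immediate early lists, beside a median of -0.38 for all genes.

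**Figure D5:**
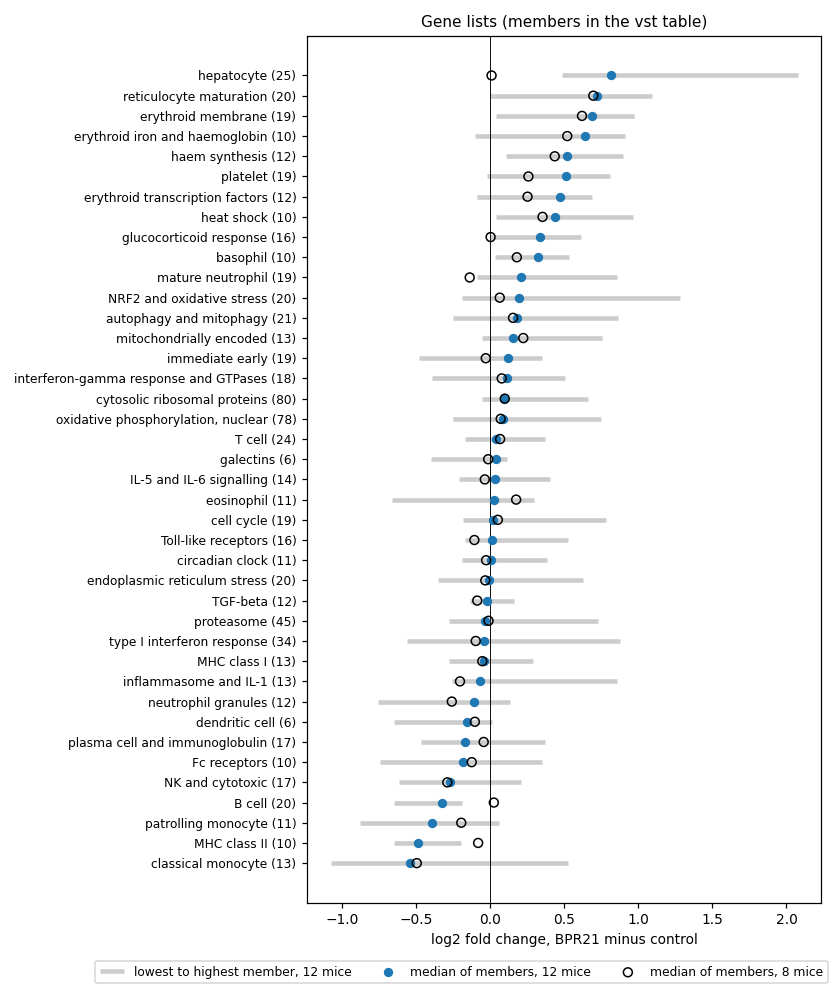
Median log2 fold change against control of each gene list (y axis, number of members in the vst table in brackets) with 12 BPR21 mice (filled circles) and with the 8 mice of low Alb counts (open circles); grey bars run from the lowest to the highest member with 12 mice. The classical monocyte list lies at -0.54 and -0.50, whereas the B cell list moves from -0.33 to 0.02. Medians with total-count scaling, by which some lists turn negative, are not drawn.

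The direct comparisons with the other HOCl-induced groups show where BPR21 mice differed from them, all sharing the same 12 BPR21 mice. BPR21 had the lowest mean of the 6 groups for all 12 of the largest decreases, and for 16.6% of all genes. It had the highest mean for 6 of the 12 largest increases, and for 17.1% of all genes. Since these genes were chosen for the difference of BPR21 from control, their rank among the groups is partly set by the choice. Against HOCl mice (11 mice with vst values), 67 genes (0.638%) differed, 25 higher (0.238%) and 42 lower (0.4%), but 2, both lower (0.019%), without the libraries of high Alb counts, and 0 with total-count scaling, where 867 had an unadjusted p under 0.05. The 2 genes lower without those libraries were Ms4a6d and App, the amyloid precursor gene, named after their values were seen. The following calls hold with all libraries and missed the FDR threshold without those of high Alb counts. Tifab fell by 0.98 ± 0.15 (FDR = 0.0031), Tmem176b by 0.93 ± 0.14 (FDR = 0.0031), Colec12 by 0.67 ± 0.11, Scarb1, a scavenger receptor for lipoproteins, by 0.65 ± 0.11 and Psap, a lysosomal precursor protein, by 0.66 ± 0.11 (each FDR = 0.00472), and Kbtbd8 rose by 0.46 ± 0.08 (FDR = 0.00472). Mean vst values of Tifab were 8.99 in BPR21, 10.03 in control, 9.97 in HOCl, 9.53 in D11, 9.52 in E07 and 9.42 in D06 mice. Ccr2 differed from HOCl mice by -0.75 ± 0.21 without passing (FDR = 0.0828), and Pf4 by 0.20 ± 0.17 (FDR = 0.637).

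Against D11 mice limma and edgeR each called 0 genes, with 621 under an unadjusted p of 0.05 by limma, and limma called 0 without the libraries of high Alb counts (638 under this p). Ccr2 differed by -0.59 ± 0.21 (FDR = 0.68), and Dnaja1 by 0.54 ± 0.21 (FDR = 0.724). Against D06 mice 6 genes (0.0571%) passed, 1 higher (0.00952%) and 5 lower (0.0476%). Il7r, the interleukin-7 receptor of T cells, rose by 0.58 ± 0.11 (FDR = 0.0372), while Camp, an antimicrobial peptide of neutrophil granules, fell by 1.19 ± 0.24 (FDR = 0.0495), Camk1 by 0.69 ± 0.12 (FDR = 0.022), Aif1 by 0.68 ± 0.13 (FDR = 0.0372), Crip1 by 0.60 ± 0.11 (FDR = 0.03) and Gm21188 by 0.53 ± 0.10 (FDR = 0.0372). Without the libraries of high Alb counts 0 genes passed by limma in this comparison, with 1066 under an unadjusted p of 0.05, while edgeR with all libraries called 7.

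Against E07 mice 763 genes (7.26%) differed, 598 higher (5.69%) and 165 lower (1.57%). Without the libraries of high Alb counts, and so with fewer mice, 0 genes differed and 1655 had an unadjusted p under 0.05. edgeR with all libraries called 1098. Cxcr4, the marrow-homing receptor of leukocytes, rose by 1.00 ± 0.16 (FDR = 0.00426), Tsc22d3, a glucocorticoid-induced leucine zipper, by 0.97 ± 0.16 (FDR = 0.00426) and Cd69, an activation marker of lymphocytes, by 0.72 ± 0.12 (FDR = 0.00426). Cirbp fell by 0.71 ± 0.12 (FDR = 0.00513), and Tuba8 and Cfap97d2 rose by 0.60 ± 0.11 and 0.68 ± 0.13 (each FDR = 0.0136). Against control, the same 3 leading genes had log2 fold changes of 0.61 for Cxcr4, 0.52 for Tsc22d3 and 0.43 for Cd69, none of which passed (FDR = 0.0702, 0.0968 and 0.0956).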

How the data were processed

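Whole blood RNA was sequenced from 71 mice after poly A selection and globin depletion in strand-specific libraries. The authors deposited raw counts per gene for 55416 genes and 71 mice, made with cutadapt, STAR on mm39 and featureCounts, and a log2-like vst value (variance stabilizing transformation of DESeq2) in 70 mice for 10508 genes left after non-coding and low genes were removed. The annotation release is not given in the sources used here, and HOCl mouse 8 has counts only. Gene positions come from GENCODE vM39 (GRCm39). Promoters were those of RefSeq on GRCm38.p6.

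The 12 BPR21 and 11 control mice were grouped by title. The main test was limma 3.58.1 (R 4.3.3) on the vst values, as in the study's methods, with Benjamini-Hochberg adjustment over the whole table and calls at an FDR up to 0.05 and a 1.3-fold change or more either way. edgeR 4.0.16 (glmQLFTest with TMM factors) tested the counts of 10501 genes matched by symbol or ID, and 7 of the vst genes were left out. DESeq2 1.42.0 and the other alternatives were other filters, scalings, covariates and mice left out. Single values per mouse were tested by permutation. Python 3.11.15 was used for the rest. Fits were tested on simulated data with known changes.

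Genes were named by a rule: the 12 largest increases and 12 largest decreases past both thresholds, up to 4 members of lowest p in each of 39 lists, up to 6 genes of lowest FDR in each direct comparison, and Lgals3. The members and lists were chosen with earlier results of these data known. Cd14, Rsad2 and Isg15 were named as list extremes, after their values were seen. The hepatocyte and glucocorticoid lists, the removal of libraries with over 1000 Alb counts, and the list medians with total-count scaling (log2 of CPM plus 1) were added after seeing the data. The totals of 12.2 to 15.9 M counts limit the precision for low genes, and p-values measure the spread between mice of 1 experiment. No 2 libraries of a group agreed within sampling noise. Of the genes that passed, 1 is not reported here by name.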

Additional observations from a re-analysis of the deposited data

Results flagged for a closer look

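Of the 24 genes with the largest changes against control, the following also differed between BPR21 mice and another HOCl-induced group in a direct test by limma, which shares the BPR21 mice with the comparison against control. Values are log2 differences, BPR21 minus the other group.

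Against HOCl mice, where 0.638% of all genes passed (0.238% higher and 0.4% lower), the heat shock cofactor Dnaja1 was higher by 0.80. The following 9 genes were lower, with Tifab at -0.98, Tmem176b at -0.93, Cx3cr1 at -0.87, Ms4a6d at -0.78, Cybb at -0.74, Fcgr1 at -0.70, Mpeg1 at -0.68, Ly6c2 at -0.68 and Colec12 at -0.67. Without the libraries of high Alb counts 1 of these 10 genes passed, Ms4a6d (-0.90, FDR = 0.0314), and the others had FDR from 0.053 to 0.298. In this smaller set of mice the log2 differences of the 10 genes ran from -0.95 to 0.59. With total-count scaling limma called 0 genes of the whole table, and 867 had an unadjusted p under 0.05.

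Against E07 mice, where 7.26% of all genes passed, 9 of the 12 increases did so. Dnaja1 differed by 0.77, Stom by 0.76, Pf4 by 0.67, Gng11 by 0.66, H4c3 by 0.64, Pdzk1ip1 by 0.61, Trdc by 0.60, Tmem158 by 0.60 and Slc43a3 by 0.55. Of the decreases, Ccr2 differed by -0.63, Tifab by -0.53, Cx3cr1 by -0.51, Fcgr1 by -0.50, Cybb by -0.49, Tmem176b by -0.46 and Ly6c2 by -0.38. Without the libraries of high Alb counts 0 of these 16 genes passed by limma (FDR from 0.179 to 0.378). This removed 4 BPR21 and 3 E07 mice. In the mice left Ccr2 differed by -0.66, Tifab by -0.47 and Tmem176b by -0.45, and Dnaja1 by 0.55, Stom by 0.42 and Pf4 by 0.35.

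Against D06 mice, where 0.0571% of all genes passed, only Aif1 passed among the 24, at -0.68. It did not pass without those libraries (-0.67, FDR = 0.088). Against D11 mice 0 of the 24 passed by limma.

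Genes of the count table outside the vst table, which the comparison did not use, were also tested against control. Of 2862 such genes that reached 10 counts in 11 or more mice, edgeR called 14 higher and 1 lower in BPR21 mice. Over all 13084 genes of the same fit, 64 were called higher (0.489%) and 54 lower (0.413%). Myof, which repairs membranes, was the lower one, with a log2 fold change of -1.61 (FDR = 0.049). Those higher included Dnai4 (1.80, FDR = 0.0448) and Rny1, a small RNA bound by the Ro protein (1.54, FDR = 0.042). These genes were named after their values were seen. Without the 4 mice of high Alb counts edgeR called 0 of the 2862 genes, and 254 had an unadjusted p under 0.05.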

How the results depend on the processing

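The number of genes that differed from control by limma was 53 (16 higher, 37 lower). It was 406 (281 higher, 125 lower) with all 6 groups in one fit, 677 and 448 with total-count scaling plus 1 or 0.5 CPM, 0 with the erythroid score as a covariate, 187 by edgeR and 13 without the 4 mice of high Alb counts. Leaving out each mouse gave 19 to 650 genes, and in the range of 1.5 times of the 53 in 8 of 23 fits. A trend and robust variances (64), the FDR alone (54) and centring (48) gave similar counts, while genes above the median level gave 79 (41 higher, 38 lower). By edgeR the 187 genes (117 higher, 70 lower) became 521 (393 higher, 128 lower) with DESeq2, 319 (44 higher, 275 lower) with total counts alone, 118 with at least 10 counts in at least 11 mice, 118 with edgeR's own filter, 569 with all groups in one fit, 17 without the 4 mice, 15 with the minimum of 10 counts and without the 4 mice, and 79 to 909 with each mouse left out, the lowest without control 2 and the highest without control 12.

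The mouse number is shared between groups, but same-numbered mice are different animals. Between BPR21 and control, their deviations from the group means correlated at 0.055 on average over 11 pairs (-0.176 to 0.403). Of these, 4 pairs were over 0.1, and 1 mouse correlated best with its own number. A correlation over all genes cannot show whether mice of the same number shared a batch or an order of handling, which was not tested. With the number as a replicate block limma called 534 genes (431 higher, 103 lower) and edgeR 484 against control, 21 genes against HOCl and 2 against D06.

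Against HOCl the 67 genes became 148 with all groups in one fit, 0 with total-count scaling and 2 without the libraries of high Alb counts. Against D11 all groups in one fit gave 5 genes. Against E07 the 763 genes became 4811 (152 higher, 4659 lower) with total-count scaling and 0 without those libraries. Against D06 the 6 genes became 36, 0 and 0 under the same 3 settings. The cause was not tested.

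Of 5612 alternatives for 106 values of named genes, 4573 kept direction and side of the threshold, 434 lost and 600 gained the call, and 5 turned in direction. The latter were Il7r against control (-0.0124 and -0.0125 with total-count scaling plus 1 and 0.5) and Lat (-0.1027, -0.1029, and -0.1148 by edgeR with total counts). The size factor difference stayed between -0.397 and -0.308. Median counts of 28.5 for Cd209a and 43.5 for Aif1 in BPR21 mice limit the precision of such low genes.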

Other observations

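Genes of hepatocytes and of the glucocorticoid response were gathered into lists after the Alb counts had been seen, and are given as values. The 25 hepatocyte genes took 0.0622% to 0.112% of all counts in BPR21 mice 7, 10, 11 and 12 and at most 0.000733% in the other 8. Their median log2 fold change against control was 0.82 with 12 mice and 0.01 with 8. By limma 0 of the 25 genes passed and 25 had an unadjusted p under 0.05, beside 19.9% of all genes. edgeR called 24 higher, beside 1.11% of all genes. Since the list was chosen for the Alb counts of these libraries, its counts are largely set by that choice and lend no support. Serpina3k, a secreted protease inhibitor of the liver, had 1.20 with 12 mice and 0.14 with 8 (limma, FDR = 0.137 and 0.447).

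The 16 glucocorticoid response genes in the table had a median log2 fold change of 0.33 with 12 mice, 0.00 with 8 and -0.016 with total-count scaling. By limma 0 of them passed and 7 had an unadjusted p under 0.05, beside 19.9% of all genes. edgeR called 1 of these genes higher, beside 1.11% of all genes. Their mean vst value was 9.79, 9.61, 10.09 and 9.32 in BPR21 mice 7, 10, 11 and 12, against 8.86 to 9.35 in the other 8 and 8.79 to 9.21 in control mice. In the libraries of high Alb counts of the other HOCl-induced groups it was between 8.74 and 9.29, and their B cell means lay at or above 9.95. Among all other libraries of the series with vst values the lowest B cell mean was 9.86, that of HOCl mouse 12 with 1 count of Alb, and the 4 BPR21 mice lay below it with 9.05 to 9.73.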
